A study of Homo sapiens with 12 samples.

Results

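The transcripts described here were FKBP5 and 9 chaperones or cochaperones of steroid hormone receptors, chosen by gene symbol from what their proteins are known to do. The 10 members were FKBP5, FKBP4, HSP90AA1, HSP90AB1, HSPA8, HSPH1, STIP1, PTGES3, DNAJA1 and BAG1. All 10 were among the 34643 genes in the count table and among the 15419 genes with enough reads to be tested. RNA-Seq was performed on LNCaP, an established human prostate cancer line that responds to androgen and was derived from a lymph node metastasis. The cells carried a lentiviral shRNA, driven by the U6 promoter of pLKO.1-puro, that was either a scrambled control (shScramble) or directed at TMEFF2 (shTMEFF2), a transmembrane protein of prostate epithelium, and were selected in puromycin. Cells were held in charcoal-stripped serum for 24 h and then received either ethanol vehicle (DHT-) or 10 nM dihydrotestosterone (DHT+), the most potent natural androgen, for another 24 h, about 17 days after the shRNA was introduced. The 4 groups, shScramble DHT-, shScramble DHT+, shTMEFF2 DHT- and shTMEFF2 DHT+, held 3 libraries each. The 3 repeats were separate treatments and extractions that drew on a pair of transductions, and the labels do not tie a repeat to a transduction or name the TMEFF2 hairpin, so p-values cover the spread between these repeats only.

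An unliganded steroid receptor is handed through a chain of chaperones. HSP40 proteins such as DNAJA1 and the constitutive HSP70, HSPA8, bind it first. STIP1, also called HOP, then bridges HSP70 and HSP90, and HSP90 (HSP90AA1 and HSP90AB1), p23 (PTGES3) and an immunophilin hold the receptor ready for hormone. FKBP5 (FKBP51) and FKBP4 (FKBP52) are the immunophilins that compete for that last position. HSPH1, an HSP110, and BAG1 are nucleotide exchange factors of HSP70. FKBP5 is a classical gene induced by steroid hormones, whereas several HSP70 and HSP90 genes are known as targets of heat shock factor.

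The sequences just upstream of 4 members are shown because these are the members with a called change and because their promoters differ in heat shock elements. Each is the 250 bases before the RefSeq transcription start site (GRCh38.p14), 5′ to 3′ on the gene's strand, and capitals mark matches to the heat shock element core.
FKBP5, chr6:35688916-35689165, minus strand: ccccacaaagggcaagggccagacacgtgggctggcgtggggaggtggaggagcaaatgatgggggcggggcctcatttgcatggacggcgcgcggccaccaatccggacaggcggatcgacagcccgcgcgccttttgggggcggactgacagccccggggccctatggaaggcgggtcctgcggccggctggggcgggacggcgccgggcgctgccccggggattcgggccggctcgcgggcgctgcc
PTGES3, chr12:56688285-56688534, minus strand: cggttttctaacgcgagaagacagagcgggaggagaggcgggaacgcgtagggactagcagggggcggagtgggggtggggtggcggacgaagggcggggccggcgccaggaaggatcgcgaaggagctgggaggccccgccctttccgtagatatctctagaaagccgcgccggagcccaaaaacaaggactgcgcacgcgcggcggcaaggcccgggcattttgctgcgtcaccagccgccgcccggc
HSP90AA1, chr14:102087045-102087294, minus strand: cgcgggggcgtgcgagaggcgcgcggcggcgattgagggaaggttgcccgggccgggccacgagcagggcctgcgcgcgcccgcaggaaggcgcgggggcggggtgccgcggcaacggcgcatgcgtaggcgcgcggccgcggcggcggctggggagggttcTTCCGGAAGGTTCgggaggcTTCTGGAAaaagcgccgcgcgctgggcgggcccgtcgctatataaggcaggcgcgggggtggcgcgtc
HSPA8, chr11:123062137-123062386, minus strand: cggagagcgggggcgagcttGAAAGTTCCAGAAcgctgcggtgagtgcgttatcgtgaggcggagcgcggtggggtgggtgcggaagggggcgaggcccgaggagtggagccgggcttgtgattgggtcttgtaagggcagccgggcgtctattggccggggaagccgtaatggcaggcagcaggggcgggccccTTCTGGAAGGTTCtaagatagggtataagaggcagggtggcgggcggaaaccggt
The core was searched as GAANNTTC or TTCNNGAA, each of which reads the same on the other strand, and overlapping matches were kept. HSP90AA1 held 3 matches, at 88, 83 and 68 bases before the start site, and HSPA8 held 4, at 230, 225, 55 and 50 bases before it. FKBP5 and PTGES3 held none in this window. RefSeq windows were given for 9 of the 10 members (FKBP4 is named only), and 3 of the 9, HSP90AA1, HSPA8 and DNAJA1, held a core, against 11.6% of the 35116 promoter windows in the table. For members with several windows, only the one nearest the canonical start site was used, whereas the share counts every window. The start site of the HSPH1 window lay 484 bases upstream of the canonical one, so none of the 250 bases just before the latter were searched. In all, 3 alternating units without a gap (GAANNTTCNNGAA or TTCNNGAANNTTC, a search added after the first) were present in HSP90AA1 as TTCCGGAAGGTTC and in HSPA8 as GAAAGTTCCAGAA and TTCTGGAAGGTTC, and in 0.441% of all windows. The steroid receptor hexamer AGAACA, or TGTTCT on the other strand, occurred in 0 of 9 member windows and in 12.4% of all windows, and the inverted repeat of that hexamer with 3 bases between was also in 0 of 9. Elements outside these 250 bases were not examined.

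In GENCODE v44 (GRCh38), FKBP5 spans chr6:35573585-35728583 on the minus strand with 11 exons in its canonical transcript. PTGES3 lies at chr12:56663341-56688408, HSP90AA1 at chr14:102080742-102139699 and HSPA8 at chr11:123057489-123063230, all on the minus strand. HSP90AA1 overlaps WDR20 and BAG1 overlaps SPINK4, both protein-coding genes on the opposite strand. Whether the counting used strand is not given in the sources used here, so reads in those overlaps could not be assigned with certainty. The overlap with WDR20 begins at chr14:102139503, upstream of the canonical start site of HSP90AA1 at 102087044, so it lies outside that transcript. Processed pseudogenes listed separately for 7 of the members took at most 0.0744% of the combined level of a gene and its pseudogenes.

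The libraries held 19450866 to 22612046 estimated counts. TMEFF2 itself, the target of the shRNA, was measured at 77.8, 73.8 and 103.2 CPM in shScramble DHT-, 173.3, 117.0 and 169.4 in shScramble DHT+, 68.7, 39.4 and 81.7 in shTMEFF2 DHT- and 142.1, 90.1 and 114.5 in shTMEFF2 DHT+, where CPM is a gene's count relative to the TMM-scaled library total. The lines overlapped at both conditions, and the log2 difference of shTMEFF2 against shScramble was -0.43 ± 0.25 (SE, adjusted p = 0.503) without DHT and -0.41 ± 0.25 (adjusted p = 0.304) with DHT by the quasi-likelihood F test of edgeR, with p-values adjusted over all genes tested by the Benjamini-Hochberg method, which gave all adjusted p-values below. The mRNA difference was therefore not significant in these libraries. Its intervals, 0.51- to 1.08-fold without DHT and 0.52- to 1.09-fold with it, hold both a clear decrease and no change. Every shTMEFF2 library was below the same-numbered shScramble library at that condition, although replicate numbers were not taken as pairs. The paper reports, with a Western blot and its own measurement of TMEFF2 mRNA, that some of its shRNAs silenced TMEFF2 in LNCaP cells. Whether silencing was achieved in these libraries was not settled by their TMEFF2 mRNA values. The prostate markers KLK3, KLK2, FOLH1, HOXB13, KRT8 and KRT18 were expressed in every library. Of 8 markers of other cells, KRT5 was at 0 in all libraries, COL1A1 was the highest at 11.9 to 30.4 CPM, and their sum was 25.2 to 26.1 CPM in shScramble DHT-, 16.7 to 18.5 in shScramble DHT+, 28.5 to 41.1 in shTMEFF2 DHT- and 20.3 to 25.2 in shTMEFF2 DHT+. Their part in the results below was not tested. In bulk RNA, fewer cells that express a gene and less of its RNA per cell cannot be told apart.

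FKBP5 had by far the widest range of the 10 members. Without hormone it was measured at 55.0, 64.3 and 71.1 CPM in shScramble and at 57.3, 58.6 and 66.1 in shTMEFF2. With DHT it reached 585.1, 744.2 and 653.5 CPM in shScramble but 86.1, 114.2 and 135.9 in shTMEFF2. The untreated groups overlapped, every shTMEFF2 DHT+ library lay above every untreated library, and the lowest shScramble DHT+ library was 4.31 times the highest shTMEFF2 DHT+ library. In order of mean, the levels were 60.7 ± 4.8 CPM (SD, n = 3) in shTMEFF2 DHT-, 63.5 ± 8.1 in shScramble DHT-, 112.1 ± 25.0 in shTMEFF2 DHT+ and 660.9 ± 79.8 in shScramble DHT+, and only the first pair of neighbours did not separate.

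**Figure D1:**
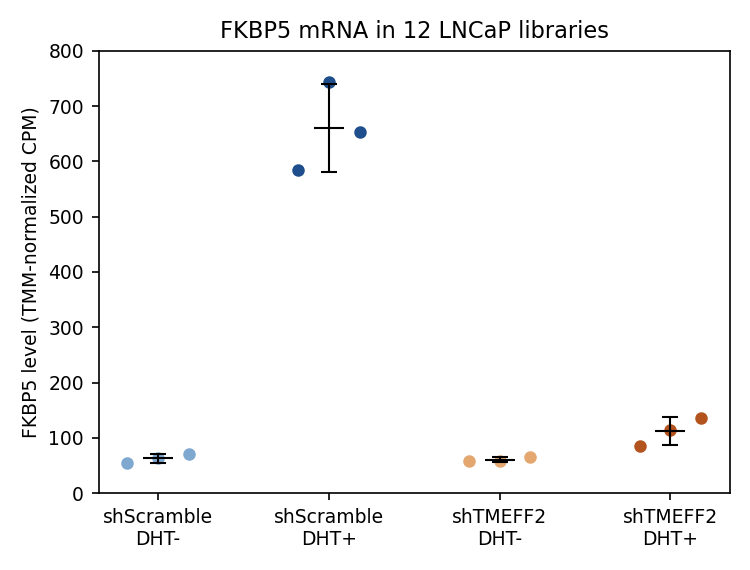
FKBP5 mRNA in each of the 12 libraries, in TMM-normalized CPM on a linear axis from 0, by group, with each point 1 library and bars giving the mean ± SD of 3 libraries. The shScramble DHT+ libraries sit between 585.1 and 744.2 CPM, the shTMEFF2 DHT+ libraries between 86.1 and 135.9, and the untreated libraries of both lines between 55.0 and 71.1.

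DHT increased FKBP5 in both lines. In shScramble the increase was 10.4-fold (log2 3.38 ± 0.16 SE, 95% interval 8.19- to 13.3-fold, adjusted p = 4.93e-08), the 43rd largest increase of the 15419 genes tested. In shTMEFF2 it was 1.85-fold (log2 0.89 ± 0.15, 1.48- to 2.31-fold, adjusted p = 0.00295), which ranked 409th. The difference of the responses, tested as an interaction, was -2.50 ± 0.21 on the log2 scale, that is, the response in shTMEFF2 was 5.64-fold smaller (adjusted p = 8.37e-05). Of all genes tested it had the 5th smallest p-value for this difference, and it ranked 74th from the most negative value. With DHT present FKBP5 was 5.90-fold lower in shTMEFF2 than in shScramble (log2 -2.56 ± 0.15, adjusted p = 9.01e-07). Without DHT the lines differed by -0.06 ± 0.15 (adjusted p = 0.914), with an interval of 0.764- to 1.20-fold. The log2 response in shTMEFF2 lay between 0.73, when DHT+ library 3 was left out, and 1.04, when DHT+ library 1 was, and it passed the threshold each time.

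Among the 10 members, 2 were higher and 1 lower with DHT in shScramble at an adjusted p of at most 0.05, whereas 14.4% of all genes tested were called higher and 12.6% lower. In shTMEFF2, 2 members were higher with DHT and 0 lower (0 lower also at an unadjusted p under 0.05 and by DESeq2 and limma-voom), against a background of 7.84% and 5.21%. The members called higher were FKBP5 and PTGES3 in both lines, and the one called lower was HSP90AA1. FKBP5 alone also passed the 1.5-fold limit used in the study, in both lines, where 11.9% of all genes did so in shScramble and 4.88% in shTMEFF2. The median log2 response of the 10 members was 0.03 in shScramble and 0.11 in shTMEFF2, beside -0.01 and -0.02 over all genes tested. For the 9 members other than FKBP5, the 95% intervals of every response lay within 0.751- to 1.34-fold in shScramble and 0.916- to 1.39-fold in shTMEFF2.

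PTGES3, the p23 cochaperone that stabilises the closed HSP90 dimer on its client, rose with DHT in both lines. It was measured at 517.0, 544.2 and 525.9 CPM in shScramble DHT- and 666.4, 670.2 and 628.7 in shScramble DHT+. In shTMEFF2 it was 525.7, 494.6 and 522.7 CPM without DHT and 665.5, 637.1 and 681.4 with it. Treated and untreated libraries did not overlap in either line, and the lines overlapped at each condition. The increase was 1.24-fold in shScramble (log2 0.31 ± 0.05, adjusted p = 0.00061) and 1.29-fold in shTMEFF2 (log2 0.36 ± 0.05, adjusted p = 0.001), and it was called in all 22 alternative analyses of each line. The difference of the responses was 0.05 ± 0.07 (adjusted p = 0.772), with an interval of 0.933- to 1.16-fold.

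Of the immunophilins that share the TPR docking site on HSP90, FKBP4 did not follow FKBP5. FKBP4 ranged from 375.5 to 456.1 CPM over the 12 libraries, a 1.22-fold range, whereas FKBP5 ranged over 13.5-fold. Its log2 response to DHT was 0.09 ± 0.07 in shScramble (adjusted p = 0.369) and 0.13 ± 0.07 in shTMEFF2 (adjusted p = 0.232). The interval of the difference of its responses was 0.895- to 1.19-fold, which does not reach that of FKBP5, 0.129- to 0.244-fold.

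The stress-inducible HSP90 gene, HSP90AA1, was lower with DHT in shScramble. It was measured at 2638, 2329 and 2256 CPM in shScramble DHT- and at 2183, 1977 and 1893 in shScramble DHT+. In shTMEFF2 it was 2361, 2409 and 2298 CPM without DHT and 2635, 2278 and 2348 with it. The shScramble groups did not overlap, although the gap between them was small, whereas the shTMEFF2 groups overlapped. The decrease in shScramble was 1.19-fold (log2 -0.25 ± 0.07, adjusted p = 0.0207), and the log2 response in shTMEFF2 was 0.04 ± 0.07 (adjusted p = 0.785). The call in shScramble was lost when DHT- library 1 (log2 -0.18, adjusted p = 0.0987), DHT+ library 2 (adjusted p = 0.0702) or DHT+ library 3 (adjusted p = 0.0762) was left out. The difference of the responses, 0.29 ± 0.10, did not pass the threshold (adjusted p = 0.142), although it passed in 2 of 21 alternative analyses, with a replicate block (adjusted p = 0.0269) and with library size only (adjusted p = 0.0497).

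HSP90AB1, the constitutive HSP90 gene, ranged from 2082 to 2544 CPM. Its log2 response was -0.14 ± 0.05 in shScramble (adjusted p = 0.0535) and -0.02 ± 0.05 in shTMEFF2 (adjusted p = 0.858). The value in shScramble lay at the edge of the threshold and passed it in 6 of 22 alternative analyses, with a log2 response between -0.21 and -0.10 over all of them.

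**Figure D2:**
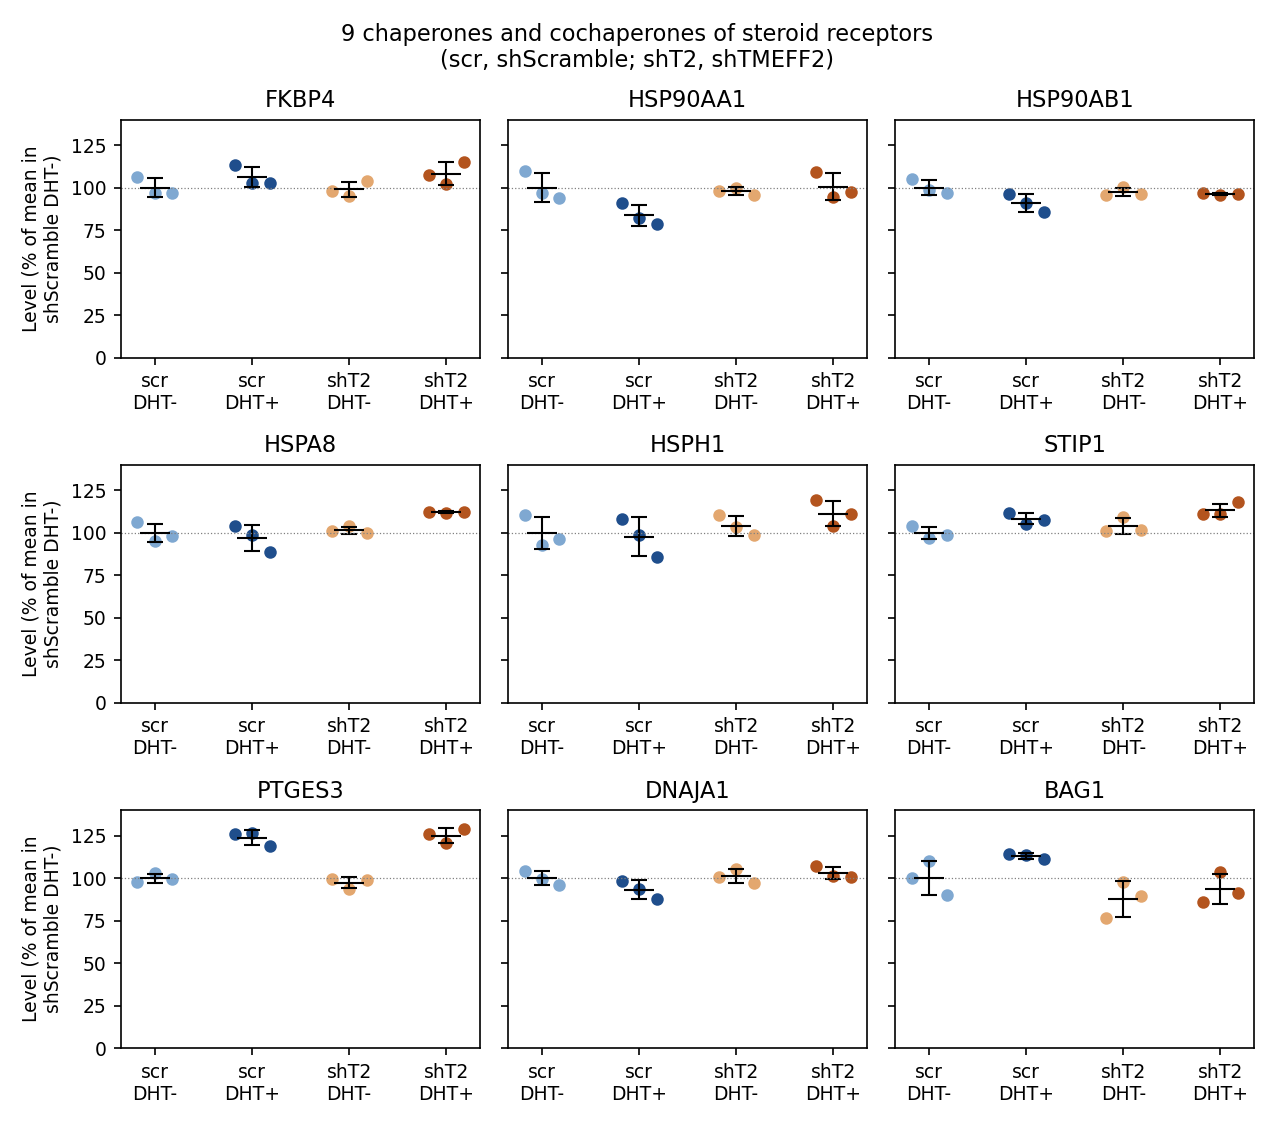
Levels of the 9 other members in each library as a percentage of that gene's mean in shScramble DHT-, on linear axes from 0, with each point 1 library and bars giving the mean ± SD of 3 libraries. PTGES3 is higher in all DHT+ libraries of both lines, HSP90AA1 is lower in shScramble DHT+, and the 3 shTMEFF2 DHT+ libraries of HSPA8 lie above the other 9.

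HSPA8, the constitutive cytosolic HSP70, was highest in shTMEFF2 DHT+. It was measured at 2787, 2507 and 2580 CPM in shScramble DHT-, at 2733, 2588 and 2335 in shScramble DHT+, at 2647, 2726 and 2624 in shTMEFF2 DHT- and at 2950, 2935 and 2954 in shTMEFF2 DHT+. The last group did not overlap any other, and the other 3 groups overlapped each other. With DHT present it was 1.15-fold higher in shTMEFF2 than in shScramble (log2 0.21 ± 0.06, adjusted p = 0.0265). This call was lost without shScramble DHT+ library 3 (log2 0.15, adjusted p = 0.0813), without any 1 of the shTMEFF2 DHT+ libraries (adjusted p = 0.0538 to 0.0657), and in a fit of only these 6 libraries (adjusted p = 0.0776). The log2 response to DHT in shTMEFF2 was 0.14 ± 0.06 (adjusted p = 0.12), and the difference of the responses was 0.18 ± 0.08 (adjusted p = 0.251).

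The remaining cochaperones of the HSP70 to HSP90 transfer had no call in any comparison, although each of these 4 had one under 1 other setting or more. STIP1, the bridge between both chaperones, had a log2 response of 0.12 ± 0.05 in shScramble (adjusted p = 0.14) and 0.12 ± 0.05 in shTMEFF2 (adjusted p = 0.172). STIP1 was also the member for which the pair of count columns deposited for each library differed the most, by up to 0.25 on the log2 scale: in shScramble DHT- the first column gave 321.0, 287.5 and 309.5 CPM and the second 269.5, 262.5 and 268.4, so the log2 response in shScramble was 0.00 from the first column and 0.24 from the second (adjusted p = 0.0108). DNAJA1, the HSP40 that delivers clients to HSP70, had log2 responses of -0.10 ± 0.06 (adjusted p = 0.241, and 0.0365 with library size only in place of TMM) and 0.03 ± 0.06 (adjusted p = 0.819). HSPH1 ranged from 168.8 to 234.3 CPM, with log2 responses of -0.03 ± 0.09 (adjusted p = 0.835) and 0.10 ± 0.09 (adjusted p = 0.553). BAG1, measured at 34.7 to 51.8 CPM, had log2 responses of 0.18 ± 0.10 (adjusted p = 0.215) and 0.09 ± 0.10 (adjusted p = 0.611). With DHT the BAG1 groups did not overlap, at 51.8, 51.3 and 50.4 CPM in shScramble and 39.0, 46.8 and 41.3 in shTMEFF2, but the log2 difference of -0.27 ± 0.10 did not pass the threshold (adjusted p = 0.0873). Gene lengths were not part of the table, so levels were not compared between genes.

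**Figure D3:**
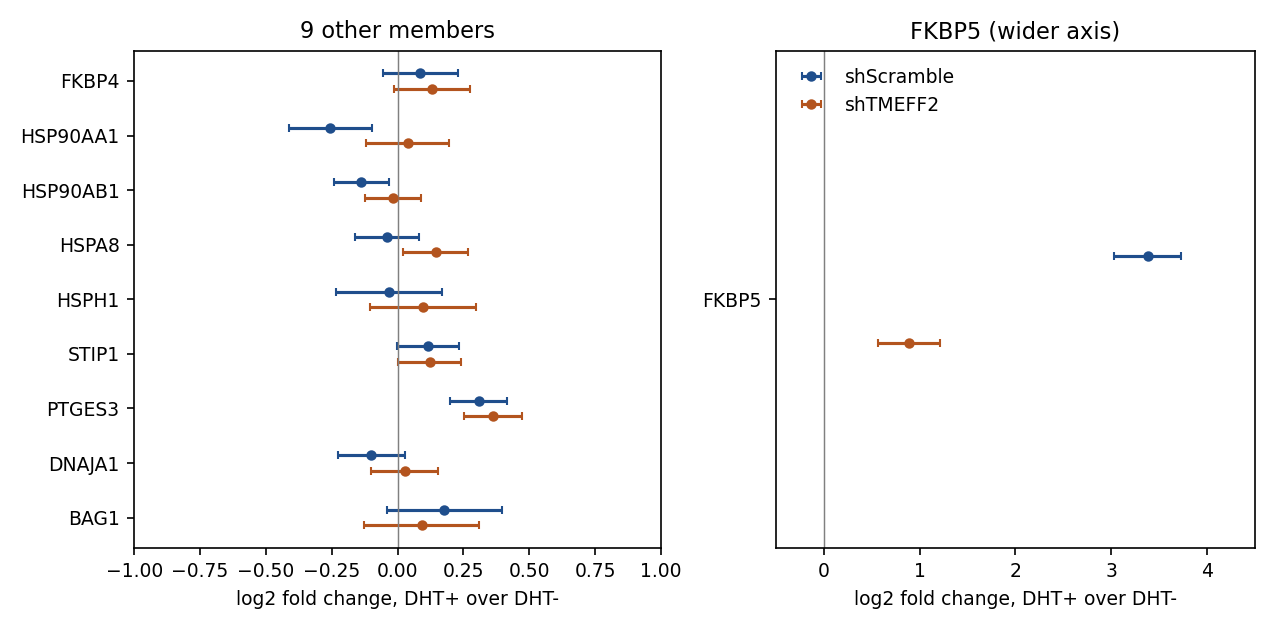
Log2 fold change of DHT+ over DHT- for the 9 other members (left) and for FKBP5 on a wider axis (right), with points giving the fitted value and bars the 95% interval from the model of all 12 libraries, blue for shScramble and orange for shTMEFF2. The FKBP5 intervals of the lines are apart, at 3.03 to 3.73 and 0.56 to 1.21, whereas those of PTGES3, at 0.20 to 0.42 and 0.25 to 0.47, overlap.

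Comparing the lines directly, 0 of the 10 members differed without DHT at an adjusted p of at most 0.05. In that comparison 0 members also had an unadjusted p under 0.05, and DESeq2 and limma-voom called 0. Over all genes, 0.623% were called higher in shTMEFF2 without DHT, 0.493% lower, and 0.571% also passed 1.5-fold. For the 9 members other than FKBP5 the intervals of this difference lay within 0.755- and 1.20-fold. With DHT, 2 members were higher in shTMEFF2 (HSP90AA1, 1.20-fold, adjusted p = 0.0279, and HSPA8) and 1 was lower (FKBP5), against 6.93% and 9.09% of all genes, and 1 also passed 1.5-fold, against 6.77%. The HSP90AA1 call was lost without shScramble DHT+ library 2 (adjusted p = 0.0683) or 3 (adjusted p = 0.0953), without shTMEFF2 DHT+ library 1 (log2 0.20, adjusted p = 0.111), and in the fit of 6 libraries (adjusted p = 0.0586). For the difference of responses, 1 member was lower (FKBP5) and 0 higher (2 members above 0, HSP90AA1 and HSPA8, had an unadjusted p under 0.05, and DESeq2 and limma-voom also called 0), beside 3.29% and 1.65% of all genes. These comparisons share groups and are not independent of each other.

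The other genes of the pathway came from lists of known partners. Of 23 HSP90 partners and paralogs, all tested, 3 rose and 0 fell with DHT in shScramble (HSP90B1, CDC37 and PPID), and 1 rose and 0 fell in shTMEFF2 (PPID), where the shares of all genes called higher and lower were 14.4% and 12.6% in shScramble and 7.84% and 5.21% in shTMEFF2. PPID, or cyclophilin 40, is another immunophilin of the HSP90 docking site. It was at 60.4, 55.9 and 63.6 CPM in shScramble DHT- and 72.9, 77.1 and 71.3 in shScramble DHT+ (log2 0.30 ± 0.07, adjusted p = 0.00628), and its response in shTMEFF2 was 0.26 ± 0.07 (adjusted p = 0.0258, lost in 8 of 22 alternatives). CDC37, which brings kinases to HSP90, rose by 0.35 ± 0.05 in shScramble (adjusted p = 0.000425), and its response in shTMEFF2 was 0.10 ± 0.05 (adjusted p = 0.256). The difference of the CDC37 responses, -0.25 ± 0.08, did not pass the threshold (adjusted p = 0.0901). HSP90B1, the HSP90 of the endoplasmic reticulum, was at 1726, 1325 and 1557 CPM in shScramble DHT- and 3483, 2272 and 3142 in shScramble DHT+, a 1.93-fold increase (adjusted p = 0.000385). In shTMEFF2 HSP90B1 was at 1396, 1218 and 1123 CPM without DHT and 1573, 1297 and 1353 with it, and with DHT it was 2.11-fold lower than in shScramble (adjusted p = 0.000305). TRAP1, the mitochondrial HSP90, was 1.22-fold higher in shTMEFF2 with DHT (adjusted p = 0.00989). Without DHT it was 1.18-fold higher (adjusted p = 0.109), with groups that did not overlap. The difference of the TRAP1 responses was 0.05 ± 0.09 (adjusted p = 0.855). The median log2 response of the list was 0.03 in shScramble and 0.10 in shTMEFF2.

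Of 23 genes of the HSP70 machinery, all tested, 3 rose and 3 fell with DHT in shScramble, and 2 rose and 2 fell in shTMEFF2, against the same shares of all genes (14.4% and 12.6%, then 7.84% and 5.21%). HSPA13, an HSP70-like protein of microsomes, was at 42.5, 47.0 and 53.3 CPM in shScramble DHT- and 91.4, 77.9 and 80.2 in shScramble DHT+ (log2 0.81 ± 0.10, adjusted p = 5.4e-05). HSPA13 was at 46.1, 40.5 and 44.9 CPM in shTMEFF2 DHT- and 52.2, 46.0 and 49.6 in shTMEFF2 DHT+, and with DHT it was 1.69-fold lower than in shScramble (adjusted p = 0.00017). HSPA4L, an HSP110 like HSPH1, fell in shScramble from 56.7, 61.6 and 49.3 CPM to 33.5, 40.5 and 39.6 (log2 -0.56 ± 0.13, adjusted p = 0.00609), and was at 42.6, 45.8 and 54.0 CPM in shTMEFF2 DHT- and 47.8, 54.5 and 64.8 in shTMEFF2 DHT+. The others called in shScramble were HSPA1L (log2 -0.76) and DNAJB4 (log2 -0.62) and, named after their values were seen, DNAJA3 (0.27) and BAG5 (0.19, lost in 8 of 22 alternatives). In shTMEFF2 the calls were HSPA1L (log2 -0.52), DNAJB2 (-0.36) and HSPA14 (0.29) and, again named afterwards, DNAJA3 (0.21), and they were lost in 8, 4, 5 and 13 of 22 alternatives. For genes called in a single line, the difference of responses was not called for HSPA14 (adjusted p = 0.244), DNAJB2 (adjusted p = 0.367) or BAG5 (adjusted p = 0.823). That of DNAJB4, 0.63 ± 0.17, was close to the threshold (adjusted p = 0.0572) and passed in 4 of 21 alternatives. With DHT, 2 genes of this list were higher in shTMEFF2 (HSPA4L, log2 0.56, and DNAJB4, 0.45) and 2 lower (HSPA13 and, named afterwards, DNAJB2, -0.31), and the calls of DNAJB4 and DNAJB2 were lost in 5 and 11 of 22 alternatives. Over all genes tested, 6.93% were called higher and 9.09% lower in shTMEFF2 with DHT. HSPA1A and HSPA1B are near-identical to each other, with means of 1.0 and 256.2 CPM in shScramble DHT-, so the split of reads between them is uncertain. Reads of HSPA1L, their neighbour, may also be shared with them, so its values are uncertain. The median log2 response of the list was -0.03 in shScramble and 0.005 in shTMEFF2.

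**Figure D4:**
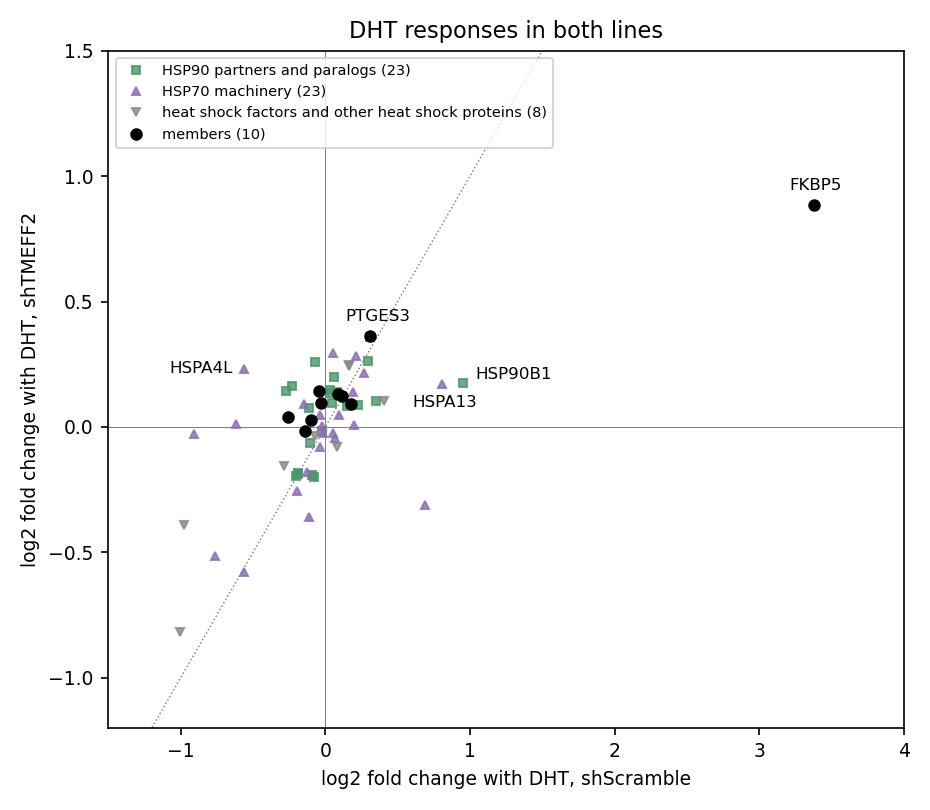
Log2 fold change with DHT in shScramble (horizontal axis) against that in shTMEFF2 (vertical axis, drawn at a larger scale) for the 10 members and the genes of the 3 lists, with the dotted line marking equal responses. FKBP5, at 3.38 and 0.89, lies far to the right of the line, PTGES3, at 0.31 and 0.36, lies close to it, and most genes sit near 0 on both axes.

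Of 8 heat shock factors and other heat shock proteins, all tested, 1 rose and 2 fell with DHT in shScramble, and 2 rose and 0 fell in shTMEFF2, with median log2 responses of 0.006 and -0.06, beside shares over all genes of 14.4% and 12.6% in shScramble and 7.84% and 5.21% in shTMEFF2. HSPD1, the mitochondrial HSP60, rose in both lines (log2 0.16 ± 0.05, adjusted p = 0.0286, and 0.24 ± 0.05, adjusted p = 0.0085), and its partner HSPE1, the mitochondrial HSP10, rose in shTMEFF2 (0.25 ± 0.06, adjusted p = 0.0165), with a value of 0.16 ± 0.06 in shScramble (adjusted p = 0.0561) and a difference of responses of 0.08 ± 0.08 (adjusted p = 0.691). HSPB1, or HSP27, fell in shScramble (log2 -0.29 ± 0.07, adjusted p = 0.0116) and was higher in shTMEFF2 than in shScramble with DHT (0.26 ± 0.07, adjusted p = 0.0299). Its log2 response in shTMEFF2 was -0.16 ± 0.07 (adjusted p = 0.19), and the difference of responses was 0.13 ± 0.10 (adjusted p = 0.595). HSPB8, named after its values were seen, fell in shScramble from 4.44, 4.52 and 4.11 CPM to 1.97, 2.49 and 2.05, a call lost in 7 of 21 alternatives. In shTMEFF2 the log2 response of HSPB8 was -0.82 ± 0.29 (adjusted p = 0.0819), with a difference of responses of 0.19 ± 0.42 (adjusted p = 0.879). The call of HSPB1 in shScramble was lost without DHT+ library 2 (adjusted p = 0.054), its call between the lines with DHT was lost in 6 of 22 alternatives (adjusted p up to 0.0915), and the call of HSPD1 in shScramble was lost in 9 of 22 alternatives.

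The genes whose pattern over the 12 libraries was most like that of FKBP5, by Pearson correlation of log2 CPM, were NDFIP2 (0.99), ACSL3 (0.99), PAK1IP1 (0.99), RASSF3 (0.99) and SPDEF (0.99). The 12 points fall into the 4 groups of the design, so these values describe a likeness of group levels and carry no p-value. ACSL3, a long-chain acyl-CoA synthetase, was at 190.0 ± 24.1 CPM (SD, n = 3) in shScramble DHT-, 1141 ± 118 in shScramble DHT+, 171.9 ± 12.3 in shTMEFF2 DHT- and 262.1 ± 35.9 in shTMEFF2 DHT+. SPDEF, a transcription factor of prostate epithelium, was at 62.4, 150.9, 64.9 and 78.1 CPM in the same order of groups. The lowest correlations were those of ASAP2 (-0.99), MMP16 (-0.99) and SI (-0.99), and SI, the disaccharidase sucrase-isomaltase, went from 27.4 to 2.74 CPM with DHT in shScramble and from 30.2 to 18.5 in shTMEFF2. Among the members, the correlation with FKBP5 was 0.72 for PTGES3, 0.67 for BAG1, 0.40 for FKBP4 and 0.37 for STIP1, and it was -0.81 for HSP90AA1, -0.75 for HSP90AB1, -0.68 for DNAJA1 and -0.32 for both HSPA8 and HSPH1.

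**Figure D5:**
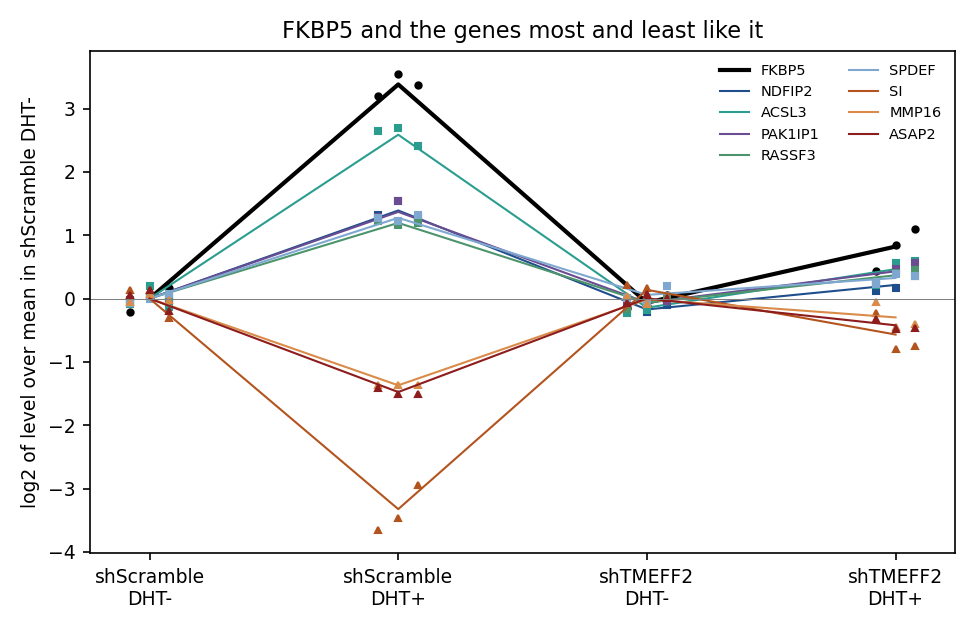
Levels of FKBP5 and of the 5 genes most like it and 3 least like it over the 12 libraries, as log2 of the level over that gene's mean in shScramble DHT-, with points for libraries and lines joining group means. FKBP5 and the 5 like genes peak in shScramble DHT+, where FKBP5 averages 660.9 CPM. In shTMEFF2 DHT+ FKBP5 is 5.90-fold lower than there and the like genes from 1.77-fold (RASSF3) to 4.35-fold (ACSL3) lower. The 3 unlike genes go the other way.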

How the data were processed

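RNA-Seq (paired-end) was measured in 12 LNCaP libraries. Per the labels and methods, the authors trimmed reads with Trimmomatic, quantified transcripts with kallisto 0.42.3 and summarised them to genes, and the deposited values are estimated counts scaled by transcript length, in 2 columns per library. The columns were summed and rounded here. Libraries were grouped by their titles. edgeR 4.0.16 (quasi-likelihood F test, TMM, filterByExpr with a minimum count of 10, 1 coefficient per group, Benjamini-Hochberg adjustment over 15419 genes) was fitted to all 12 libraries, and the script was tested on simulated data. A gene was called at an adjusted p of at most 0.05, and intervals (95%) come from the same model. Library totals of 19450866 to 22612046 gave 722 to 66390 counts per member and library. Alternatives were DESeq2 1.42.0, limma 3.58.1 (voom), other scalings and filters, single columns, the 6 libraries of a contrast, a replicate block and leaving out each library. Genes named were the 10 members, TMEFF2, up to 3 called genes of at least 5 CPM per list and contrast, and the 5 most and 3 least FKBP5-like genes. The members, lists and this rule were chosen with earlier results of these data known, and an item of the rule is not reported here. Promoters are from RefSeq (GRCh38.p14), positions from GENCODE v44.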

Additional observations from a re-analysis of the deposited data

Results flagged for a closer look

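In each of 4 genes the response to DHT differed between shTMEFF2 and shScramble by a test of the difference itself, edgeR's quasi-likelihood interaction with Benjamini-Hochberg adjustment over all genes tested, and the causes were not tested. These genes came from the 10 members and the lists of 23, 23 and 8 genes described above. Over all genes tested, 3.29% were called lower and 1.65% higher for this difference. FKBP5 responded less in shTMEFF2, by a log2 difference of -2.50 ± 0.21 (SE, adjusted p = 8.37e-05), and this held in all 21 alternatives, from -2.65 to -2.34. HSPA13 responded less, by -0.64 ± 0.13 (adjusted p = 0.0176), and passed in 20 of 21 alternatives, the exception being without shScramble DHT+ library 1 (adjusted p = 0.0505). HSPA4L differed by 0.79 ± 0.18 (adjusted p = 0.0245) and passed in 15 of 21 alternatives, with the largest leave-one-out adjusted p, 0.0683, without shScramble DHT- library 2. HSP90B1 differed by -0.77 ± 0.20 (adjusted p = 0.0492), just inside the threshold, and passed in 7 of 21, with -0.63 (adjusted p = 0.118) when shScramble DHT+ library 1 was left out.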

How the results depend on the processing

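FKBP5 kept its direction and its call in both DHT responses, between the lines with DHT and in the difference of responses under all 21 or 22 alternatives. The number of members called was within 1.5 times the reported number except as follows, and the cause was not tested. With library size only in place of TMM it was 5 for DHT in shScramble, 5 between the lines with DHT and 2 for the difference of responses, which added DNAJA1 (adjusted p = 0.0365 and 0.0236) and HSP90AB1 in the first pair and HSP90AA1 in the last. A fit of only 6 libraries gave 1 member between the lines with DHT. Replicate numbers were not taken as pairs, since not every same-numbered pair correlated over 0.1 (-0.00172 to 0.169, median 0.0722, 3 of 18 over 0.1, against -0.14 to 0.0658, median -0.0276, for 36 others), and a replicate block gave 5 members between the lines with DHT (HSPH1, adjusted p = 0.0498, and BAG1, adjusted p = 0.0347, added) and 2 for the difference of responses (HSP90AA1 added, adjusted p = 0.0269). Leaving out 1 library gave 1 to 3 members between the lines with DHT, with 1 without shScramble DHT+ library 3 or shTMEFF2 DHT+ library 1. Directions turned only for log2 values that were not called. By single columns these were STIP1 in shScramble (0.00, that is -0.0004, first), between the lines without DHT (-0.0164, first) and with DHT (-0.002, second) and in the difference (-0.14, second), DNAJA1 in shTMEFF2 (-0.0083, first) and FKBP4 without DHT (0.0088, second). By leaving out 1 library, log2 ranges that crossed 0 were, for DHT in shScramble, HSPA8 (-0.0947 to 0.0205) and HSPH1 (-0.115 to 0.0538), for DHT in shTMEFF2, HSP90AA1 (-0.026 to 0.0907), HSP90AB1 (-0.0303 to 0.0035) and DNAJA1 (-0.0006 to 0.0591), between the lines without DHT, FKBP5 (-0.158 to 0.0306), FKBP4 (-0.0456 to 0.0318), HSP90AA1 (-0.0704 to 0.0393), HSPA8 (-0.0098 to 0.0681) and DNAJA1 (-0.0146 to 0.0497), with DHT, FKBP4 (-0.0079 to 0.0852) and PTGES3 (-0.0151 to 0.0526), and for the difference of responses, FKBP4 (-0.0044 to 0.101) and STIP1 (-0.022 to 0.0443). The 3 libraries per group limit small changes: for the 9 members other than FKBP5, 95% intervals reached from 0.712- to 1.43-fold over the comparisons.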
